A study of Mus musculus with 16 samples.

Results

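The *Vipr2*- and *Prokr2*-selected neurons were 354 of 9679 neurons and 354 of 55675 cells kept in 16 Drop-seq libraries of the mouse hypothalamus-POA. They carry the working name suprachiasmatic-like neurons, after the suprachiasmatic nucleus, the hypothalamic seat of the central circadian clock. A barcode counted as a cell when it had 201 to 3999 genes and under 15% of its unique molecular identifiers (UMIs) on mitochondrial genes, and as a neuron when at least 3 of *Snap25*, *Syt1*, *Stmn2*, *Snhg11*, *Meg3*, *Celf4*, *Map1b* and *Ndrg4* were detected. A neuron was selected when *Vipr2*, *Prokr2* and *Rgs16* together had at least 2 UMIs and at least 1 of these was of *Vipr2* or *Prokr2*. Levels of these genes therefore chose the cells, and they are given below as a description without a test.

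The study asked how tamoxifen acts on the hypothalamus and which of its actions need estrogen receptor alpha, the product of *Esr1*. Drop-seq captures single cells in droplets with barcoded beads, and a UMI stands for 1 captured transcript. Each library came from 1 female mouse of mixed CD-1;129P2 background, aged 8 to 10 weeks when 28 daily subcutaneous injections began. The 16 mice formed 4 groups: 3 wild-type and 4 *Esr1* cKO mice received corn oil with ethanol, the vehicle, and 5 wild-type and 4 *Esr1* cKO mice received tamoxifen at 0.1 mg/kg. In the *Esr1* cKO mice a floxed *Esr1* was deleted by Cre from an *Nkx2-1* transgene, so the deletion reaches only cells with a history of *Nkx2-1* expression, and littermates without Cre served as wild type. *Nkx2-1* itself had 7 UMIs in the selected neurons, 8.94 CPM (UMIs of a gene scaled by the total UMIs of the class) against 30.9 CPM in the other neurons.

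The suprachiasmatic nucleus lies above the optic chiasm and is a dense cluster of small, mostly GABAergic neurons. Its cells run a transcriptional clock in which CLOCK and BMAL1 drive *Per* and *Cry* genes that feed back on them, while ROR and REV-ERB receptors set *Bmal1* transcription. VIP released by neurons of its core acts on the receptor VIPR2, a Gs-coupled receptor that raises cyclic AMP, and keeps the cells in step, whereas AVP neurons make up much of the shell. PROK2, acting on PROKR2, carries timing from the nucleus to its targets, and RGS16 is a regulator of G-protein signalling.

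The 16 libraries held 2634253 to 8038158 UMIs, and the selected neurons of a library held 12561 to 98455 UMIs. The median selected neuron had 1960.5 UMIs and 1293 genes, the median other neuron 1716 UMIs and 1192 genes. The third library of wild-type mice given oil and the third of *Esr1* cKO mice given tamoxifen stood apart from the other 14, at 73.25 and 70.15 on a first principal component where the rest lay at -26.2 to -2.88. Wild-type oil replicate 1 held 8 selected neurons with no *Igfbp5* UMI and the lowest *Avp* and *Scg2* levels, and *Esr1* cKO tamoxifen replicate 2 held 5 selected neurons. The 4 libraries numbered 13 to 16 shared 303 to 359 cell barcodes in each pair against 0 to 42 in the other 114 pairs. A barcode found in another library was carried by 12 selected neurons (3.39%) and by 3.08% of all cells kept. A doublet caller marked 7 selected neurons (1.98%), against 1.12% of all neurons and 0.855% of all cells kept.

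*Esr1*, the deleted gene, had 19 UMIs in the selected neurons. In wild-type mice it stood at 47.5, 0 and 0 CPM under oil and at 29.1, 27.9, 30.5, 66.8 and 46.2 CPM under tamoxifen. In *Esr1* cKO mice it stood at 0, 0, 14.3 and 24.4 CPM under oil and at 0, 0, 0 and 60 CPM under tamoxifen. The groups overlapped, and because a tag from the 3′ end of a transcript can lie outside a deleted exon, these levels do not check the deletion.

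Most selected neurons passed on few UMIs: 119 had exactly 2 UMIs of the 3 genes, 93 had 3, 42 had 4, and the highest had 21. *Vipr2* without *Prokr2* was found in 133 cells, *Prokr2* without *Vipr2* in 108 and both receptors in 113. *Rgs16* was detected in 73.7%, 72.2% and 61.1% of these classes. All 3 genes were found in selected neurons of all 16 libraries, with *Vipr2* at 339.8 to 782.1 CPM, *Prokr2* at 161.8 to 1048 CPM and *Rgs16* at 237.5 to 1274 CPM. The corresponding ranges in other neurons were 2.50 to 11.25, 2.11 to 11.92 and 20.3 to 88.9 CPM.

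Neurons at the edge of the rule showed how the marker levels graded across it. *Igfbp5*, a secreted binding protein for insulin-like growth factors, stood at 1513 CPM in the 235 cells with 3 or more UMIs and at 647.5 CPM in the 119 cells with 2. Just outside the rule it stood at 328.9 CPM in 264 neurons with a single receptor UMI and no *Rgs16*, at 546 CPM in 202 neurons with at least 2 *Rgs16* UMIs and no receptor UMI, and at 156.8 CPM in the 8427 neurons with none of the 3 genes. *Syt10*, a calcium sensor of vesicle release, followed the same order with 599.8, 332.6, 150.6, 245.1 and 83.96 CPM. *Slc17a6*, the glutamate transporter VGLUT2, stood at 17.99 CPM in cells with 3 or more UMIs, 198.1 CPM in those with 2 and 183.4 CPM in neurons with none. The other neurons thus still held cells with intermediate levels of these markers, which is the mixture that each comparison below is made against. On the neuronal side of the rule, 17 selected cells had exactly 3 of the 8 neuron genes and 11 cells that met the rest of the rule had 2.

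The selected neurons carried most of the listed suprachiasmatic markers above the level of the other neurons. The list was written with earlier results of these data known, so its counts describe the cells and are not an independent check of their name. For each library, UMIs were summed over the selected neurons and over the other neurons, and both sums were compared with edgeR's quasi-likelihood test with the library as a block and Benjamini-Hochberg adjustment over 6173 genes. Each SE below is the absolute log2 fold change divided by the square root of the test's F statistic, and was not fitted separately. Of all genes tested, 7.05% were higher and 11% were lower in the selected neurons at an adjusted p under 0.05. Of 18 markers of the nucleus, 14 passed the filter on low counts, 13 were higher and 1 was lower, with a median log2 fold change of 2.24 against -0.06 over all genes. The counts of 13 higher and 1 lower also held without wild-type oil replicate 1 and without both libraries that stood apart, and were 10 and 1 of 14 with the 7 oil libraries alone or with the 8 wild-type libraries alone. Of the 5 genes that name these cells, *Vip* and *Igfbp5* were the 2 the rule did not use.

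*Igfbp5* was detected in 260 of 354 selected neurons (73.4%, 95% interval 68.5 to 78.0). This interval pools the cells of all libraries, so it covers counting error and leaves out variation between mice. *Igfbp5* was also detected in 20.03% of other neurons, 1.998% of oligodendrocytes and 12.84% of astrocytes. With every cell thinned to 500 UMIs and shallower cells left out, the 4 shares were 40.11%, 7.829%, 1.069% and 10.33% in that order. After thinning, the share was thus higher in astrocytes than in other neurons. Under oil *Igfbp5* stood at 0, 1593 and 1560 CPM in wild-type and at 631.2, 1219, 1356 and 903.8 CPM in *Esr1* cKO mice. Under tamoxifen it stood at 1747, 1116, 1127, 1095 and 1363 CPM in wild-type and at 1086, 1513, 1410 and 1160 CPM in *Esr1* cKO mice. All libraries but wild-type oil replicate 1 were above the other neurons, whose levels ran from 108.6 to 252.8 CPM, and the log2 fold change was 2.73 (SE 0.23, edgeR adjusted p = 1.2e-07).

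Homeodomain factors that pattern the anterior hypothalamus and the nucleus were among the genes that rose. *Six6* ran from 47.5 to 375.8 CPM (median 133.1) over the 16 libraries against 11.4 to 39.0 CPM in other neurons, and *Six3* from 142.5 to 656.7 CPM (median 316.7) against 46.8 to 108.6 CPM. For both genes every library of selected neurons lay above every library of other neurons. How many of the 6173 genes tested separate the classes in this way was not counted, here or below. The log2 fold changes were 2.59 (SE 0.21, edgeR adjusted p = 3.5e-28) for *Six6* and 2.24 (SE 0.15, edgeR adjusted p = 2.7e-40) for *Six3*. *Lhx1*, which the nucleus needs for its peptide expression, rose by 1.45 (SE 0.25, edgeR adjusted p = 1.8e-07), and *Zfhx3*, a zinc finger homeobox factor of the adult nucleus, by 1.24 (SE 0.13, edgeR adjusted p = 1.9e-17). With the rule raised to 3 UMIs, *Lhx1* kept its direction at 0.84 but had an adjusted p of 0.0528.

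*C1ql3*, a secreted C1q-like synaptic protein, gave a log2 fold change of 3.01 (SE 0.18, edgeR adjusted p = 9.9e-19), from 61.5 CPM in other neurons to 467.6 CPM. *Syt10* rose by 2.42 (SE 0.13, edgeR adjusted p = 1.0e-59). It was found in 58.5% of selected neurons, 13.5% of other neurons, 0.589% of oligodendrocytes and 5.422% of astrocytes. With every cell thinned to 500 UMIs and shallower cells left out, these shares were 22.92%, 4.861%, 0.2889% and 3.97%. *Calb1*, the calcium buffer calbindin, rose by only 0.51 (SE 0.13, edgeR adjusted p = 0.00069), whereas *Calb2*, calretinin, fell by 1.22 (SE 0.34, edgeR adjusted p = 0.014). *Calb1* lost its call with 3 UMIs, with no filter, and with the oil or the wild-type libraries alone.

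**Figure D1:**
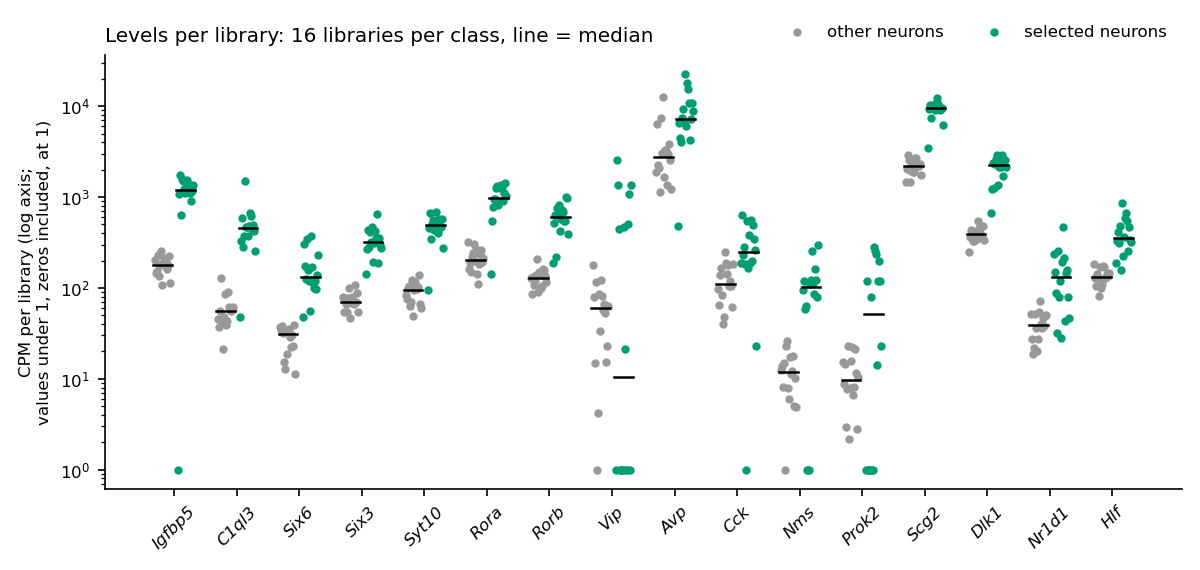
CPM of 16 genes in each of 16 libraries, for other neurons (grey) and selected neurons (green), on a log axis with values under 1 drawn at 1 and the median as a line. *Six3*, *Six6*, *Scg2* and *Dlk1* do not overlap between the classes, whereas *Vip* and *Prok2* are at 0 in 8 and 6 libraries of selected neurons. How many of all genes tested do not overlap was not counted.

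Peptides separated the selected neurons from the rest of the hypothalamus in both directions. Of 33 peptide and granin precursors, 20 passed the filter, 6 rose (*Vip*, *Avp*, *Cck*, *Vgf*, *Scg2*, *Chga*) and 10 fell, with a median log2 fold change of -1.17. Over all genes tested, 7.05% rose and 11% fell. The granins stood out most clearly. *Scg2*, the secretogranin II precursor of dense-core vesicles, ran from 3468 to 12190 CPM (median 9636) against 1452 to 2895 CPM in other neurons, without overlap, and rose by 2.05 (SE 0.08, edgeR adjusted p = 3.8e-99). *Vgf*, another dense-core vesicle precursor, rose by 1.98 (SE 0.13, edgeR adjusted p = 1.5e-25) and *Chga*, chromogranin A, by 1.16 (SE 0.18, edgeR adjusted p = 1.3e-04).

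*Avp*, the vasopressin precursor, was the peptide most widely found. Under oil it stood at 475, 7389 and 17880 CPM in wild-type and at 4008, 6684, 10780 and 7206 CPM in *Esr1* cKO mice. Under tamoxifen it stood at 4484, 22370, 6074, 4260 and 8758 CPM in wild-type and at 6609, 9235, 15520 and 10880 CPM in *Esr1* cKO mice. It was low in wild-type oil replicate 1, and the other neurons overlapped it at 1134 to 12510 CPM. The log2 fold change was 1.39 (SE 0.33, edgeR adjusted p = 0.0058), with adjusted p of 0.0564 without a filter, 0.301 in the oil libraries alone and 0.214 in the wild-type libraries alone. Against other GABAergic neurons, which had 856.6 CPM, it rose by 3.50 (SE 0.30, edgeR adjusted p = 1.6e-07).

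Most of the *Avp* UMIs of the other neurons came from few cells: 100 cells held 85.8% of them, and the highest held 3158 UMIs against 628 in the highest selected neuron. At least 1 *Avp* UMI was found in 63.6% of selected neurons (95% interval for counting error over pooled cells 58.3 to 68.6), in 11.9% of other neurons, in 3.70% of oligodendrocytes (median 795 UMIs) and in 4.04% of astrocytes. With every cell thinned to 500 UMIs, the shares were 57.3%, 7.48%, 2.24% and 2.97%, with 5 selected neurons left out as shallower. *Oxt*, the oxytocin precursor of magnocellular neurons, was by contrast at 47.3 CPM in selected neurons and 45.2 CPM in oligodendrocytes, with at most 3 UMIs in a cell, and at 913.8 CPM in other neurons.

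*Vip* lay in few cells. It had at least 1 UMI in 19 of 354 selected neurons (5.37%, 95% interval for counting error over pooled cells 3.26 to 8.25), in 1.09% of other neurons and in 0.0808% of oligodendrocytes. Under oil it stood at 0, 0 and 21.1 CPM in wild-type and at 441.8, 0, 0 and 1087 CPM in *Esr1* cKO mice. Under tamoxifen it stood at 1369, 0, 467.2, 507.5 and 1363 CPM in wild-type and at 2565, 0, 0 and 0 CPM in *Esr1* cKO mice. It was above the other neurons in 7 libraries and at 0 in 8. Its log2 fold change of 2.67 (SE 0.76, edgeR adjusted p = 0.021) rested on those libraries: the adjusted p was 0.0594 without *Esr1* cKO tamoxifen replicate 1, 0.062 without *Esr1* cKO oil replicate 4, 0.0532 without wild-type tamoxifen replicate 4, 0.0502 without wild-type tamoxifen replicate 5, and 0.627 with DESeq2 at a log2 fold change of 0.75.

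*Vip* and *Avp* were detected together in 8 of the 19 selected neurons with *Vip*. At cut-offs set after the values were seen, 12 cells in 7 libraries had at least 5 *Vip* UMIs, 108 cells in 15 libraries had at least 20 *Avp* UMIs, and no cell passed both cut-offs. The split rests on where they were set: 3 of the 12 *Vip*-rich cells held 13, 14 and 15 *Avp* UMIs, 1 held 2 and the other 8 held 0, and a cell with 26 *Avp* UMIs held 3 *Vip* UMIs. The 12 *Vip*-rich cells held 0 *Cck* UMIs, 405.4 CPM of *Nms*, the neuromedin S precursor, and 958.3 CPM of *C1ql3*. The 108 *Avp*-rich cells had 249.8 CPM of *Prok2* and 1023 CPM of *Rorb*, against 62.1 and 450.5 CPM in the 234 cells with neither peptide, which had 472.5 CPM of *Cck* and 606.7 CPM of *Prokr2*. *Cck* was found in 6.56% of the cells with *Nms* and in 25.6% of those without, while *Prok2* was found in 37.7% and 7.17%. These shares describe cells drawn from all libraries and were not tested.

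**Figure D2:**
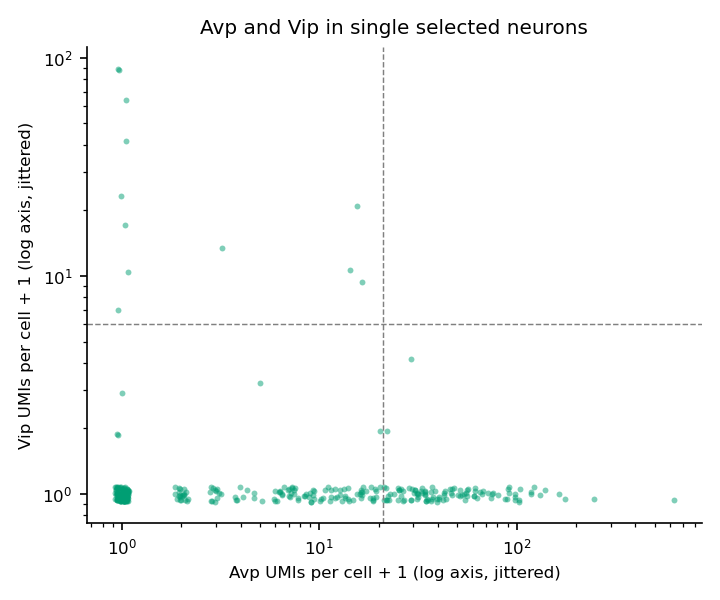
UMIs of *Avp* (x axis) and *Vip* (y axis) in each of 354 selected neurons, as UMIs plus 1 on log axes with a small jitter, with dashed lines at 20 *Avp* and 5 *Vip* UMIs. No cell lies past both lines, which were set after the values were seen, and 3 *Vip*-rich cells with 13, 14 and 15 *Avp* UMIs lie just short of the *Avp* line.

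*Prok2*, the ligand of PROKR2, and *Nms* were too sparse to pass the filter between selected and other neurons and have no test there. *Prok2* stood at 123.9 CPM in selected and 10.8 CPM in other neurons and was found in 12.4% of selected neurons, 1.46% of other neurons and 0.0462% of oligodendrocytes. *Nms* stood at 117.5 against 11.2 CPM and was found in 17.2% of selected neurons, 1.29% of other neurons and 0.0462% of oligodendrocytes. Neither level was particular to the rule. Just outside it, 202 neurons with at least 2 *Rgs16* UMIs and no receptor UMI had 147.8 CPM of *Prok2*, 120.7 of *Nms* and 603.6 of *Vip*. The 264 neurons with a single receptor UMI and no *Rgs16* had 11.45, 19.64 and 62.18 CPM. These pooled values were not tested. *Cck*, the cholecystokinin precursor, rose by 1.33 (SE 0.31, edgeR adjusted p = 0.0052). *Grp*, gastrin-releasing peptide, a marker of the core, had 5 UMIs in selected neurons, 6.39 CPM against 30.3 CPM in other neurons.

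Of the 20 tested peptide and granin precursors, 10 fell, and which nuclei express them was not tested. *Tac2*, the neurokinin B precursor of arcuate neurons, fell by 5.98 (SE 0.30, edgeR adjusted p = 7.9e-68) and its 2 classes did not overlap. *Npy* (-4.097), *Oxt* (-4.01), *Pdyn*, prodynorphin (-3.03), *Nts*, neurotensin (-2.82), and *Penk*, proenkephalin (-1.39), also fell on the log2 scale, each at an edgeR adjusted p of 0.022 or less. *Sst* fell by 3.07 (edgeR adjusted p = 2.6e-04), with 29 of its 36 UMIs in 1 cell, and *Gal*, galanin, fell by 2.74 (edgeR adjusted p = 0.0031), with 80 of its 103 UMIs in 1 cell. *Tac1* fell by 1.77 (edgeR adjusted p = 0.029) but had an adjusted p of 0.0515 without *Esr1* cKO oil replicate 1 and of 0.0565 without wild-type tamoxifen replicate 3. *Cartpt* fell by 1.60 (edgeR adjusted p = 0.049) and lost its call when any single library other than wild-type oil replicate 1 or *Esr1* cKO oil replicate 3 was left out, with adjusted p of 0.0618 to 0.0949, and 117 of its 183 UMIs lay in 1 cell of the latter.

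Several precursors had 0 UMIs among the 782792 UMIs of the selected neurons. Against a floor of 3 counts over these neurons, *Gnrh1* was at least 29.8-fold lower than in the other neurons, *Trh* at least 12.4-fold, *Npvf* at least 10.1-fold, *Agrp* at least 9.52-fold and *Crh* at least 2.39-fold. *Hcrt*, the orexin precursor, had 1 UMI and *Pmch*, the melanin-concentrating hormone precursor, 2. These bounds cover counting error only.

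Promoter sequence is shown for some of the peptide and clock genes of these cells whose window held a searched motif. *Cck* and *Nr1d2* also held a match and are not printed. Windows of 250 bases before each start were taken from RefSeq (GRCm38.p6) for 24 of 26 genes, and letters were searched on both strands. The E-box CACGTG, the letters that CLOCK and BMAL1 can bind, occurred in 5 of the 24 genes (*Avp*, *Bhlhe41*, *Cck*, *Per1*, *Prok2*) and in 6.02% of 32851 windows. The cyclic AMP response element TGACGTCA occurred in *Hlf* and *Scg2* and in 1.55% of windows, and its short form CGTCA, which the full element contains, occurred in 8 of the 24 genes and in 17.8% of windows. The letters AGGTCA, part of the element that ROR and REV-ERB receptors bind, occurred in 3 of the 24 genes (*Nr1d2*, *Per1*, *Prokr2*) and in 14% of windows, and the D-box TTATGTAA in 0 of the 24 and in 0.819% of windows. A match is a description of letters and not a bound site. The 60 bases of 4 peptide genes follow, 5′ to 3′ on the gene's strand, with the motif in capitals. The printed bases of *Avp* lie at chr2:130582695-130582754 (minus strand) and those of *Prok2* at chr6:99726495-99726554 (minus strand). Their E-boxes begin 139 and 135 bases before the start. *Scg2* is shown at chr1:79440061-79440120 (minus strand) with the full element and *Vip* at chr10:5639111-5639170 (plus strand) with the short one.
*Avp*: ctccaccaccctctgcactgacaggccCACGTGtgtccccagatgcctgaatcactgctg
*Prok2*: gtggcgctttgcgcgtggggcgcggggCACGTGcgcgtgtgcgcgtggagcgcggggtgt
*Scg2*: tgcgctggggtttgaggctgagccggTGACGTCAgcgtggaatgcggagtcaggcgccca
*Vip*: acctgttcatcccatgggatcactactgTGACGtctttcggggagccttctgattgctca

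Clock genes rose in part. Of 25 clock genes 24 were in the files, 15 passed the filter, 7 rose and none fell, with a median log2 fold change of 0.23. The shares over all genes were 7.05% higher and 11% lower. The 7 were *Rora*, *Rorb*, *Nr1d1*, *Nr1d2*, *Hlf*, *Bhlhe41* and *Per1*. Without both libraries that stood apart, 6 of 16 rose and the E-box repressor *Bhlhe40* and the protease gene *Usp2* fell, with log2 fold changes of -1.44 and -1.25 (edgeR adjusted p = 0.0051 and 0.025).

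*Rora* and *Rorb*, activators of *Bmal1*, rose by 2.28 (SE 0.22, edgeR adjusted p = 5.6e-07) and 2.23 (SE 0.12, edgeR adjusted p = 6.7e-60). *Nr1d1*, which encodes the repressor REV-ERBα, ran from 27.9 to 463.9 CPM (median 132.4) against 18.8 to 72.3 CPM in other neurons, higher in 15 of 16 libraries, and rose by 1.83 (SE 0.21, edgeR adjusted p = 9.7e-16). *Nr1d2*, which encodes REV-ERBβ, rose by 0.68 (SE 0.21, edgeR adjusted p = 0.0090), but had an adjusted p of 0.0747 without *Esr1* cKO tamoxifen replicate 3.

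*Hlf*, a PAR bZIP output factor, ran from 159.2 to 865.1 CPM (median 352.8) against 82.4 to 183.7 CPM, higher in all 16 libraries, and rose by 1.61 (SE 0.13, edgeR adjusted p = 6.7e-31). *Bhlhe41*, a repressor that binds E-boxes, rose by 1.14 (SE 0.22, edgeR adjusted p = 7.0e-06) and *Per1* by 1.07 (SE 0.27, edgeR adjusted p = 8.6e-04), the latter without a call in the oil or in the wild-type libraries alone. *Per2* was too sparse to test, at 66.4 against 19.7 CPM. *Clock* stood at 148.2 against 125.6 CPM, *Per3* at 44.7 against 44.8 CPM and *Cry2* at 44.7 against 39.5 CPM, with adjusted p of 0.48, 0.96 and 0.78 by edgeR.

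The E-boxes of the 2 repressor genes and the element of *Hlf* are printed as for the peptides. The printed bases of *Per1* lie at chr11:69098756-69098815 (plus strand) and those of *Bhlhe41* at chr6:145865541-145865600 (minus strand). Those of *Hlf* lie at chr11:90390918-90390977 (minus strand), where the element ends 2 bases before the start.
*Per1*: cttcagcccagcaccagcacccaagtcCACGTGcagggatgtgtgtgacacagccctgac
*Bhlhe41*: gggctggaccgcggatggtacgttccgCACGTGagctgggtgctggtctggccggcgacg
*Hlf*: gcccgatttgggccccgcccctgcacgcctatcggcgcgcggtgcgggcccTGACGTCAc

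The transmitter genes were those of GABAergic cells. Of 10 GABAergic genes 5 passed the filter, 4 rose and 1 fell, where 7.05% of all genes rose and 11% fell. Among them, *Gad1*, a GABA-synthesising enzyme, rose by 1.35 (SE 0.13, edgeR adjusted p = 1.6e-22), the vesicular transporter *Slc32a1* by 0.81 (SE 0.17, edgeR adjusted p = 3.8e-05) and *Gad2*, the second enzyme, by 0.46 (SE 0.10, edgeR adjusted p = 1.2e-04). *Dlx1*, a forebrain GABAergic factor, fell by 1.07 (SE 0.29, edgeR adjusted p = 0.0025). *Slc17a6* fell by 1.16 (SE 0.37, edgeR adjusted p = 0.038), with adjusted p of 0.0509 to 0.0647 when wild-type oil replicate 1 or 2, wild-type tamoxifen replicate 5, *Esr1* cKO oil replicate 2 or 3, or *Esr1* cKO tamoxifen replicate 4 was left out.

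Set against 3552 other neurons with a GABAergic gene and without *Slc17a6* or *Slc17a7*, 11.1% of 3376 genes were higher and 10.3% lower. These cells had to carry a GABAergic gene, which the selected neurons did not, and *Gad2* was then lower in selected neurons by 0.63 (edgeR adjusted p = 4.3e-08), *Slc32a1* differed by -0.30 (edgeR adjusted p = 0.12) and *Gad1* by 0.25 (edgeR adjusted p = 0.13). Of the 18 markers of the nucleus, 12 passed the filter, 10 were higher and 1 was lower. *Igfbp5* rose by 2.88, *C1ql3* by 3.25, *Rora* by 2.37, *Syt10* by 2.12 and *Six3* by 1.86, each at an edgeR adjusted p of 9.0e-08 or less, while *Vip* differed by 1.75 (edgeR adjusted p = 0.12).

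The pathways downstream of VIPR2 and PROKR2 did not move as a block. Of 30 ligands, receptors, G proteins, cyclases, phospholipases and kinases, 17 passed the filter, 4 rose and 4 fell, with a median log2 fold change of -0.25. Among all genes, 7.05% rose and 11% fell. Besides *Vip*, the stimulatory G protein *Gnas* rose by 0.54 (SE 0.11, edgeR adjusted p = 1.4e-05), the adenylyl cyclase *Adcy2* by 0.61 (SE 0.21, edgeR adjusted p = 0.021) and the phospholipase *Plcb4* by 0.38 (SE 0.12, edgeR adjusted p = 0.017). *Adcy2* and *Plcb4* lost their calls without both libraries that stood apart, with adjusted p of 0.151 and 0.355, and without *Esr1* cKO tamoxifen replicate 3 alone, with 0.0638 and 0.313. *Adcy2* also did without wild-type oil replicate 2 (0.0961) or 3 (0.0714), and *Plcb4* without wild-type oil replicate 2 (0.0536) or wild-type tamoxifen replicate 1 (0.0651). *Gnas* lost its call in the oil libraries alone, at 0.40 (edgeR adjusted p = 0.173), with 3 UMIs in the rule, at 0.228 (0.239), and with no filter on low counts, at 0.207 (0.241). The list held 2 higher and 4 lower without both libraries that stood apart, and 0 higher and 2 lower in the oil libraries alone.

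*Adcyap1r1*, the receptor of the related peptide PACAP, fell by 1.33 (SE 0.32, edgeR adjusted p = 4.5e-04), the phospholipase *Plcb1* fell by 1.34 (SE 0.21, edgeR adjusted p = 5.5e-09), and the protein kinase A subunits *Prkacb* and *Prkar1b* fell, with -0.50 and -0.47 (edgeR adjusted p = 9.4e-04 and 0.010). *Prokr1* and *Nmur2*, the paralogous prokineticin receptor and the neuromedin S receptor, and the ligand *Prok1* had 0 UMIs in the selected neurons. *Vipr1*, the other VIP receptor, had 1 UMI.

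Other regulators of G-protein signalling did not share the level of *Rgs16*. Of 16 genes of the family, the rule used *Rgs16*, 10 of the others passed the filter, none rose and 6 fell, with a median log2 fold change of -1.04. For all genes the shares were 7.05% higher and 11% lower. The 6 were *Rgs2*, *Rgs4*, *Rgs5*, *Rgs7bp*, *Rgs10* and *Rgs17*. *Rgs5* is also a pericyte marker.

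Of 28 channel genes linked to firing, 20 passed the filter, 4 rose and 4 fell, with a median of 0.05. Such calls were made for 7.05% of all genes upward and 11% downward. Among them, *Cacna1g*, a T-type calcium channel, rose by 1.37 (SE 0.25, edgeR adjusted p = 1.2e-06), *Kcnc2*, a fast delayed rectifier, by 1.11 (SE 0.18, edgeR adjusted p = 2.2e-08) and *Nalcn*, the sodium leak channel, by 0.57 (SE 0.14, edgeR adjusted p = 9.6e-04). *Kcnd2* and *Kcnip4*, the A-type potassium channel and its partner, fell, with -1.41 and -1.39 (edgeR adjusted p = 2.0e-08 and 7.1e-23), as did the sodium channel *Scn1a* with -1.19 (edgeR adjusted p = 6.9e-06) and the calcium channel subunit *Cacnb4* with -0.72 (edgeR adjusted p = 0.0043). *Kcnma1*, the BK channel, stood at 255.5 against 198.3 CPM (edgeR adjusted p = 0.055).

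**Figure D3:**
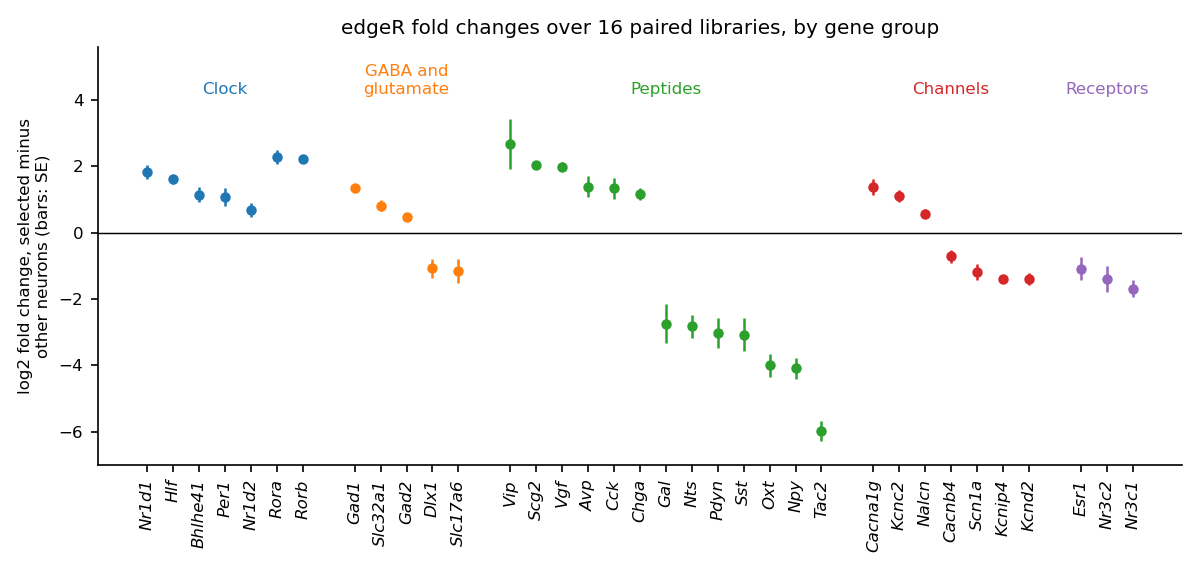
Log2 fold changes of selected against other neurons from the edgeR fit over 16 libraries, for clock, transmitter, peptide, channel and receptor genes (x axis). Bars are SE, derived from the fold change and the test's F statistic. Values above 0 are higher in selected neurons, and the peptide genes spread from 2.67 for *Vip* to -5.98 for *Tac2*.

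Of 8 steroid receptor and related genes, 4 passed the filter, none rose and 3 fell, where 7.05% of all genes rose and 11% fell. *Esr1* fell by 1.09 (SE 0.34, edgeR adjusted p = 0.012), from 51.1 to 24.3 CPM, and its adjusted p was 0.203 in the wild-type libraries alone. It was found in 5.37% of selected neurons, 8.74% of other neurons and 2.37% of oligodendrocytes, whose median depth was lower. *Nr3c1* and *Nr3c2*, the glucocorticoid and mineralocorticoid receptors, fell, with log2 fold changes of -1.70 and -1.40 (edgeR adjusted p = 6.4e-08 and 0.0037). *Esr2*, estrogen receptor beta, was not tested and stood at 25.6 CPM against 10.1 CPM, found in 5.65% of selected neurons, 2.13% of other neurons and 0.416% of oligodendrocytes.

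Of 31 regional transcription factors, 9 passed the filter, 5 rose and 1 fell, where 7.05% of all genes rose and 11% fell. Beside *Six3*, *Six6*, *Lhx1* and *Zfhx3*, *Sox2* rose by 0.90 (SE 0.19, edgeR adjusted p = 2.6e-05), and *Isl1*, a factor of arcuate and striatal lineages, fell by 1.71 (SE 0.37, edgeR adjusted p = 8.4e-05). *Otp*, *Fezf1*, *Rax*, *Lhx8*, *Tbr1* and *Hmx2* had 0 UMIs in the selected neurons, which for *Otp* is at least 7.84-fold below the other neurons. *Vax1*, expressed at the ventral midline, had 12 UMIs and stood at 15.3 against 3.10 CPM.

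Of 18 immediate early genes, which respond to activity and also to dissociation, 11 passed the filter, 4 rose and 1 fell. Across all genes 7.05% rose and 11% fell. *Dusp1* rose by 1.24 (SE 0.26, edgeR adjusted p = 0.0024), *Npas4* by 1.12 (SE 0.21, edgeR adjusted p = 4.6e-06), *Fos* by 0.75 (SE 0.21, edgeR adjusted p = 0.020) and *Jund* by 0.64 (SE 0.12, edgeR adjusted p = 4.6e-06). *Fos* had an adjusted p of 0.0727 without both libraries that stood apart, and none of the 11 was called in the wild-type libraries alone. *Nr4a1* fell by 1.08 (SE 0.34, edgeR adjusted p = 0.012), with 0.0734 without wild-type tamoxifen replicate 3.

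Markers of other cell types were lower in the selected than in the other neurons. The 9 astrocyte genes took 0.0680% of UMIs against 0.221% and the 8 oligodendrocyte genes 0.0970% against 0.250%, and every gene of both lists was lower. Of 8 microglial genes *C1qa*, *Tmem119* and *P2ry12* were at 0. The astrocyte list ran from 0.0236% to 0.319% over the libraries, highest in an *Esr1* cKO oil library. The oligodendrocyte list was highest in *Esr1* cKO oil replicate 4, at 0.242%. The 6 endothelial genes reached 0.372% in 1 *Esr1* cKO oil library against at most 0.0208% in the libraries of the other 3 groups. Their part in the comparisons was not tested.

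Outside the lists, the genes with the largest shifts in the same direction in every library were named by size. The highest were *Pter* (2.59), *B3gat2* (2.37), *Dlk1* (2.36), *Ppp1r1a* (2.33), *Pde7b* (2.14), *Pkib* (2.12), *Nnat* (2.08), *Slc2a13* (2.08), 4930506M07Rik (2.07), *Sema3e* (1.99), B630019K06Rik (1.94) and *Plcd4* (1.91), on the log2 scale. *Dlk1*, an imprinted Notch-family ligand of the hypothalamus, ran from 665 to 2898 CPM (median 2236) against 245.8 to 544.5 CPM, with an edgeR adjusted p of 1.7e-78, and *Nnat*, an imprinted proteolipid, from 997.5 to 4217 CPM (median 2564) against 303.3 to 1138 CPM. *Ppp1r1a* and *Pkib* encode inhibitors of protein phosphatase 1 and protein kinase A, and *Pde7b* a cyclic AMP phosphodiesterase. *Pkib* ran from 139.5 to 531.1 CPM against 54.0 to 108.6 CPM without overlap.

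The lowest by the same rule were *Mgp* (-6.85), *Sncg* (-3.81), *Ccnd2* (-2.83), *Zeb2* (-2.80), *Nrgn* (-2.66) and *Olig1* (-2.63). *Mgp*, matrix Gla protein, had 1 UMI in selected neurons against 32.8 to 425.8 CPM in other neurons. *Nrgn*, neurogranin, had 13 UMIs, and *Olig1*, an oligodendrocyte lineage factor, had 8.

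Cells with *Vipr2* alone and cells with *Prokr2* alone were compared within 10 libraries that held at least 3 of each. Of 179 genes that passed the filter, 2 were lower in *Vipr2* cells, 1.12%, and none was higher. They were 6330403K07Rik, at -0.97 (SE 0.23, edgeR adjusted p = 0.015), and *Gap43*, a growth-cone protein, at -0.78 (SE 0.19, edgeR adjusted p = 0.015). The count was 0 without *Esr1* cKO oil replicate 3, 1 without wild-type tamoxifen replicate 3 or *Esr1* cKO tamoxifen replicate 4, 3 without wild-type oil replicate 2 or *Esr1* cKO tamoxifen replicate 3, and 4 without wild-type oil replicate 3. Without *Esr1* cKO tamoxifen replicate 4 the former had an adjusted p of 0.0791, and without *Esr1* cKO oil replicate 3 *Gap43* had one of 0.0923. *Avp* differed by 1.71 (SE 0.74, edgeR adjusted p = 0.38), *Gnas* by 1.43 (SE 0.41, edgeR adjusted p = 0.14), *Igfbp5* by -0.19 (SE 0.23, edgeR adjusted p = 0.77) and *Scg2* by -0.14 (SE 0.16, edgeR adjusted p = 0.76).

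Pooled over libraries, *Avp* stood at 13460 CPM in *Vipr2* cells, 4604 CPM in *Prokr2* cells and 8029 CPM in cells with both, and *Vip* at 947.4, 210.7 and 143.0 CPM. *Gal* stood at 25.6, 399.8 and 8.41 CPM, the middle value set by the 1 cell with 80 UMIs. These pooled values were not tested.

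The share of neurons that met the rule did not differ detectably between the groups. It was 2.28%, 2.94% and 4.34% in wild-type mice given oil and 2.65%, 2.40%, 8.29%, 4.48% and 2.37% in those given tamoxifen. In *Esr1* cKO mice it was 2.10%, 2.43%, 3.50% and 6.83% under oil and 2.85%, 2.02%, 3.43% and 4.53% under tamoxifen. All groups overlapped. The group means were 3.18% ± 1.05 (SD, n = 3), 4.04% ± 2.53 (SD, n = 5), 3.72% ± 2.16 (SD, n = 4) and 3.20% ± 1.05 (SD, n = 4) in that order.

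Tamoxifen against oil differed by 0.855 percentage points in wild-type mice (two-sided exact permutation test, p = 0.786) and by -0.513 in *Esr1* cKO mice (exact permutation p = 0.743). *Esr1* cKO against wild type differed by 0.533 under oil (exact permutation p = 0.80) and by -0.835 under tamoxifen (exact permutation p = 0.690). The Benjamini-Hochberg adjusted value of all 4 was 0.80, and the smallest p these designs allow is 0.00794 to 0.0286. Wild-type tamoxifen replicate 3 set the sign of both wild-type tamoxifen differences, which became -0.208 and 0.228 without it, and *Esr1* cKO oil replicate 4 that of both *Esr1* cKO oil differences, which became 0.525 and -0.505.

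The share also moved with library number, which the labels do not tie to a day or a run. Libraries 1 to 8 held 2.02 to 2.94% (median 2.42) and libraries 9 to 16 held 2.37 to 8.29% (median 4.41). Within runs of 4 successive numbers, tamoxifen against oil gave 0.376, -0.535 and 3.95 points in wild-type mice and 0.745, -0.417, -0.0752 and -2.30 in *Esr1* cKO mice. *Esr1* cKO against wild type gave -0.175, -0.503 and -0.837 points under oil, opposite in sign to the pooled difference, and 0.194, -0.385, -4.87 and 1.10 under tamoxifen. Because the groups were compared by shares of captured neurons, fewer selected cells and less *Vipr2*, *Prokr2* or *Rgs16* RNA per cell cannot be told apart.

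**Figure D4:**
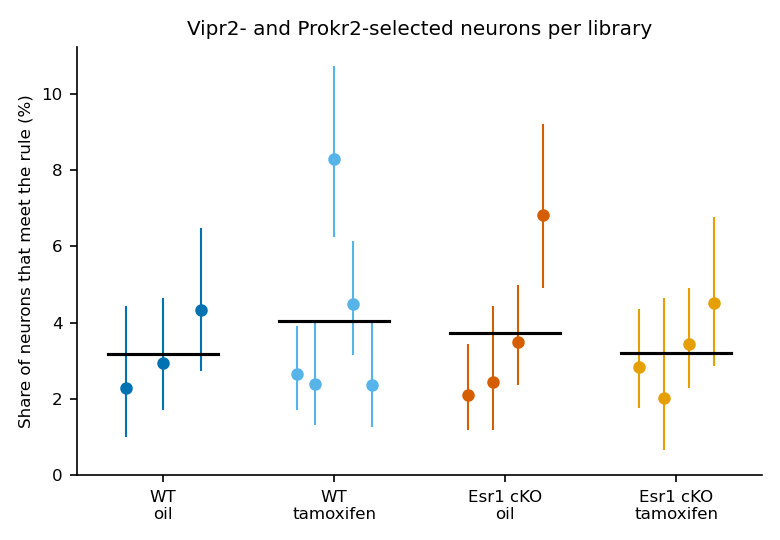
Percent of a library's neurons that met the rule (y axis) in the 4 groups, with 1 point per library, its exact 95% Clopper-Pearson interval for counting error, and the group mean as a black line. The shares run from 2.02% to 8.29% and all groups overlap.

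Gene levels within the selected neurons were compared between the 4 groups in 1 edgeR fit of 16 libraries, in which 1259 genes passed the filter. No gene passed an adjusted p of 0.05 between tamoxifen and oil among wild-type mice (0% of genes) or among *Esr1* cKO mice (0%), for *Esr1* cKO against wild type under oil (0%) or under tamoxifen (0%), or for the interaction (0%). At an unadjusted p under 0.05 there were 42, 45, 32, 37 and 58 genes, and DESeq2 also called 0 in each, with 29, 28, 24, 25 and 49 unadjusted. The lists written for these cells held none called either. The 13 tested markers of the nucleus had a median log2 fold change of 0.17 for tamoxifen in wild-type and of 0.26 in *Esr1* cKO mice, against 0.03 and -0.04 over all genes.

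The leading markers of the cells did not pass the test in any group comparison. *Igfbp5* differed by 0.27 (SE 0.51) on the log2 scale with tamoxifen in wild-type mice and by 0.24 (SE 0.49) in *Esr1* cKO mice, *Avp* by 0.17 (SE 0.76) and 0.49 (SE 0.73), *Scg2* by 0.15 (SE 0.28) and 0.06 (SE 0.27) and *Rorb* by -0.12 (SE 0.39) and 0.04 (SE 0.37), each with an edgeR adjusted p of 1. Another set of 13 genes held part of the list of markers of the nucleus, with *Scg2* and *Nr1d1*, which are not on that list. Among these, the differences with tamoxifen that were larger than their SE were those of *Vip*, 6.06 (SE 3.09), *Nr1d1*, -1.44 (SE 0.54), and *Syt10*, 0.47 (SE 0.35), in wild-type mice. In *Esr1* cKO mice they were those of *Six3*, -0.57 (SE 0.33), and *Six6*, 0.58 (SE 0.57), and all had an edgeR adjusted p of 1. *Vip* was at or near 0 in the wild-type oil libraries, so its fitted value depends on the prior count. A p that misses the threshold does not show that levels were the same.

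The genes with the smallest p values did not pass the adjustment. *Nr1d1* stood at 237.5, 254.0 and 463.9 CPM in wild-type mice given oil and at 31.6, 118.0, 42.8 and 158.8 CPM in *Esr1* cKO mice given oil. These 2 groups did not overlap, and the difference was -1.71 (SE 0.59, edgeR adjusted p = 1). Under tamoxifen it stood at 87.4, 27.9, 193.0, 146.9 and 46.2 CPM in wild-type and at 150.9, 79.6, 213.9 and 80.0 CPM in *Esr1* cKO mice, which overlapped. Wild-type mice given tamoxifen lay below those given oil in every library, with -1.44 (SE 0.54, edgeR adjusted p = 1), and the interaction was 1.98 (SE 0.81, edgeR adjusted p = 0.87). *Nr1d1* was named for its small p, and how many of the 1259 genes separate 2 groups in this way was not counted. Its lowest wild-type oil value was that of replicate 1, with 8 selected neurons. The highest was that of replicate 3, which stood apart from most libraries.

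*Mgat4c*, a glycosyltransferase gene, had the smallest p for the interaction, -2.85 (SE 0.73, edgeR adjusted p = 0.44), with -1.58 for tamoxifen in *Esr1* cKO mice and 1.45 for *Esr1* cKO under oil. It stood at 47.5, 277.1 and 63.3 CPM and at 349.4, 446.3, 253.9, 307.1 and 323.5 CPM in wild-type mice under oil and tamoxifen, and at 126.2, 235.9, 299.8 and 671.7 CPM and 150.9, 79.6, 88.1 and 180.0 CPM in *Esr1* cKO mice. Oil and tamoxifen overlapped in both genotypes, and the interaction was called (edgeR adjusted p = 0.0379) only without wild-type oil replicate 2.

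*Peg10*, an imprinted retrotransposon-derived gene, had the smallest p for tamoxifen in wild-type mice, -1.92 (SE 0.55, edgeR adjusted p = 1), with 47.5, 300.2 and 400.6 CPM under oil and 116.5, 27.9, 60.9, 66.8 and 69.3 CPM under tamoxifen, which overlapped. In *Esr1* cKO mice *Pcp4*, a calmodulin-binding peptide, was among the 3 genes with the smallest p for tamoxifen, at 4.06 (SE 1.14, edgeR adjusted p = 1). A single cell of *Esr1* cKO tamoxifen replicate 3 held 189 of its 318 UMIs. *Txnl1* led *Esr1* cKO against wild type under tamoxifen, at 1.51 (SE 0.45, edgeR adjusted p = 0.99).

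**Figure D5:**
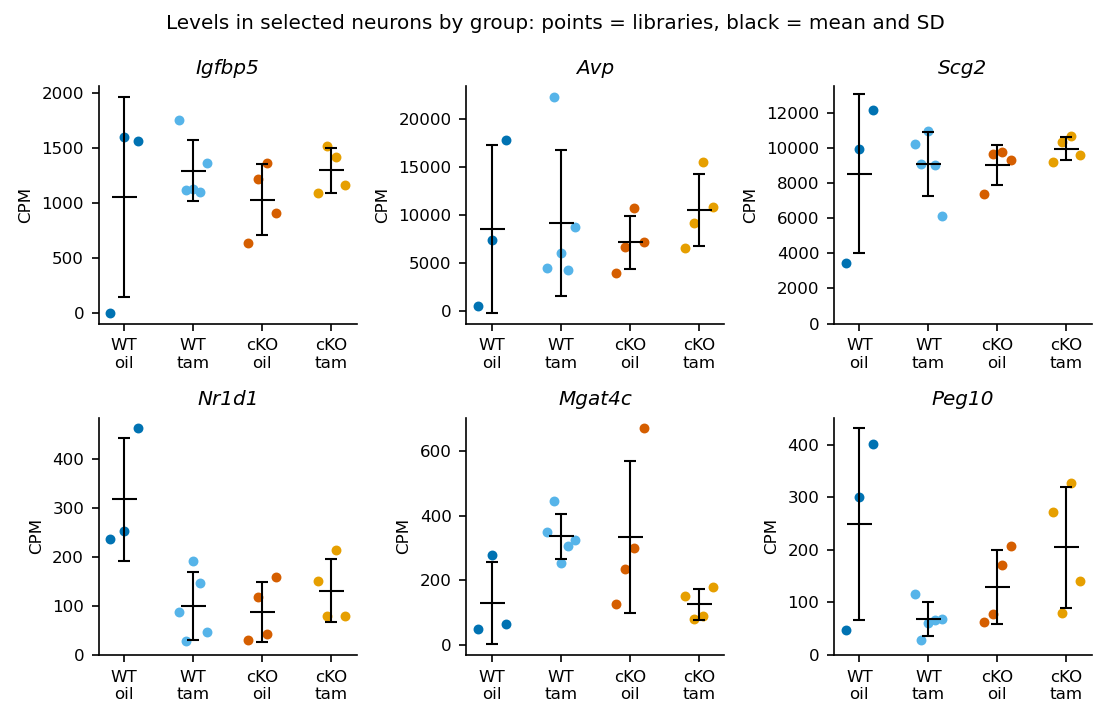
CPM of 6 genes in the selected neurons of each library (points) in the 4 groups, with mean and SD in black and linear axes. *Nr1d1*, drawn for its small p, does not overlap between wild-type and *Esr1* cKO mice given oil, and how many other genes do so was not counted. *Igfbp5*, *Avp* and *Scg2* overlap between all groups.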

How the data were processed

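The authors deposited, for each of 16 mice, raw UMI counts per gene and barcode. Per the labels, the submitters' processing notes list STAR 2.6, Seurat 3.6.1 and mm10, while the counting program and annotation are not given in the sources used here. Cells and neurons were chosen by the rule in the report, and the members and all gene lists were chosen with earlier results of these data known. UMIs were summed per library and class with at least 5 cells (3 for receptor classes) and tested with edgeR 4.0.16 (quasi-likelihood, TMM, filterByExpr, robust) in R 4.3.3, with the library as a block between classes and the 4 groups in 1 fit otherwise, Benjamini-Hochberg adjusted at 0.05. CPM are UMIs scaled by the total UMIs of a class. An SE is the absolute log2 fold change divided by the square root of the quasi-likelihood F statistic. The script recovered known changes in simulated counts. Shares were compared with exact permutation tests (scipy 1.17.1), two-sided, and their intervals and the floor of 3 counts cover counting error only. Doublets were called with Scrublet (scanpy 1.11.5, expected rate 0.05) and removed only in an alternative. GABAergic neurons, oligodendrocytes and astrocytes are classes of barcodes set by marker UMIs. Genes named were the lists' members, the 12 highest and 6 lowest that shifted alike in every library, and per group comparison the 3 with the smallest p. Channel, RGS, regional and immediate early genes were picked with their values in view. Other settings tried were DESeq2 1.42.0, its size factors, no filter on low counts, each library left out, library subsets, stricter rules, thinning, doublets removed, and, added after seeing the data, shared barcodes removed and runs of 4 library numbers for the shares. The authors' own comparisons were not used. Results of some genes in the lists are not reported here.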

Additional observations from a re-analysis of the deposited data

Results flagged for a closer look

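For 3 genes, 1 library of a group lay far from the rest of that group in the selected neurons by Dixon's criterion. *Esr1* stood at 60 CPM in *Esr1* cKO tamoxifen replicate 4 and at 0 in the other libraries of that group. *Vip* stood at 2565 CPM in *Esr1* cKO tamoxifen replicate 1, where 1 cell held 82 UMIs, and at 0 in the others. *Avp* stood at 22370 CPM in wild-type tamoxifen replicate 2, where 1 cell held 628 UMIs, against 8758 CPM in the next library. These were 3 of 33 groups of values examined. Chance alone marks about 1 in 20 when values are normally distributed, which sparse counts are not. A group with 1 library above 0 and the others at 0 is always marked, as for *Esr1* and *Vip*. Outside the filter on cells, 8 barcodes with 15% or more mitochondrial UMIs met the neuronal and receptor parts of the rule.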

How the results depend on the processing

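Of 100 gene values, 65 kept their direction and side of the threshold in every alternative. The 1115 genes called between selected and other neurons were 3552 with no filter on low counts, 1691 with 3 UMIs in the rule, 588 in oil libraries, 696 in wild-type libraries and 722 against GABAergic neurons, and 976 to 1335 with 1 library left out. *Gad2* and *Slc32a1* reversed against GABAergic neurons, to -0.63 and -0.30, where the comparison cells had to carry a GABAergic gene. Between *Vipr2* and *Prokr2* cells, 1 gene was called by DESeq2 and 0 with a minimum of 2 cells, in oil libraries or in wild-type libraries, and 0 to 4 with 1 library left out. With no filter, 1 gene was called for tamoxifen in wild-type mice, 3 for tamoxifen in *Esr1* cKO mice and 1 for *Esr1* cKO under tamoxifen, and the interaction gave 0 to 1 with 1 library left out. The share differences reversed under 5% mitochondrial UMIs (0.232 for tamoxifen in *Esr1* cKO mice and -0.241 for *Esr1* cKO under oil), with thinning (-0.066 for *Esr1* cKO under oil) and within runs of library numbers (-0.505 for the same). With 1 library left out they ran from -0.208 to 1.432, -1.05 to 0.525, -0.505 to 1.11 and -1.276 to 0.228 percentage points, in the order of the report. Apart from what each alternative's construction shows, the cause was not tested. No paired analysis was possible because the labels give no replicate number shared between groups. Runs of 4 successive library numbers, which the labels do not tie to a day, were fitted as a block instead, with 0 genes called by edgeR in each of the 5 group comparisons and 31 to 64 at an unadjusted p under 0.05. Low counts kept *Prok2*, *Nms*, *Per2*, *Esr2* and *Grp* from being tested between selected and other neurons.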
